A study of Mus musculus with 10 samples.

Results

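The comparison described here set FDB1 cells with the receptor mutant FI-Delta Y577F (Y577F below) against FDB1 cells with FI-Delta, both after 72 h without interleukin-3 (IL-3). It was made directly on 2 of the study's 10 two-colour spotted oligonucleotide arrays, chosen as the arrays whose labels give 72 h for both channels. FDB1 is a mouse myeloid progenitor line, and both lines had been grown in Iscove's medium with mouse IL-3 at 500 U/mL and fetal calf serum at 10%. At 0 h the cells were washed 3 times and then kept without the factor. The controls therefore also carried an activated receptor, and no cells without one, nor cells kept in IL-3 for 72 h, were compared. Whether each line was a clone or a pool, and how the receptors were expressed, is not given in the sources used here. The series describes 2 biological replicates of each line. The other arrays compared the same lines at 0 h (3 arrays) and the times within FI-Delta (3 arrays, 2 of them a dye swap of the same RNA) or within Y577F (2 arrays).

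FI-Delta is a mutant of the common beta chain, the signalling subunit shared by the receptors for GM-CSF, IL-3 and IL-5, and it signals without a ligand. The tyrosine that Y577F replaces, once phosphorylated, is a docking site for the adaptor Shc, which leads to Ras and the ERK kinases. In Y577F it is a phenylalanine. FDB1 cells proliferate in IL-3 and differentiate into granulocytes and macrophages in GM-CSF, so the lines can be compared for the genes of growth and of each myeloid lineage.

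Values are log2 differences of Y577F minus FI-Delta. The deposited ratios are likely Cy5 over Cy3 and base 2, which the sources do not state. Turning all signs would turn every direction below. On 72 h array 1 FI-Delta RNA carried Cy5, so its sign was turned, and on 72 h array 2 Y577F RNA carried Cy5. A linear model over all arrays gave each estimate with its standard error (SE), and the 2 direct arrays carried 72.8% of the weight in the 72 h estimate. A feature was called at a limma adjusted p under 0.05 among 20243 features. The ratios carry no counts or signal strengths. Each SE depends on the number of arrays and on the feature's own spread among them, and the median SE was 0.0974. The ratios give no levels, so the presence of a marker in either line could not be checked, and no gene's level is set against another's. P-values measure the spread among hybridisations, which share cultures and RNA extracts. The model held no term for culture and treated the hybridisations as independent, so the p-values do not measure the spread between cultures. A replicate block by culture number was run as an alternative. In RNA from whole cultures, fewer cells of a type and less RNA per cell cannot be told apart.

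At 72 h, 1304 features (6.44%) were called higher and 1305 (6.45%) lower in Y577F, and 5177 had an unadjusted p under 0.05. Of the called features, 173 of the higher and 121 of the lower differed at least 2-fold, and 17 and 22 at least 4-fold. The median of all features was 0.007. Counts called at 72 h in the gene lists below stand beside these shares of 6.44% and 6.45%. At 0 h, in the presence of IL-3, 189 features (0.934%) were called higher and 98 (0.484%) lower. The difference between the lines (Y577F minus FI-Delta) was itself called higher at 72 h than at 0 h in 877 features (4.33%) and lower in 994 (4.91%). Without 72 h array 1 the 72 h calls numbered 1421 and without 72 h array 2 they numbered 1403, of the 2609 with both. The 287 calls at 0 h fell to 57, 151 and 164 without 0 h array 1, 2 and 3, and to 171 without 72 h array 1. The 1871 calls of the difference fell to 951 without 0 h array 1 and 911 without 72 h array 2. Across all features the turned ratios of the 2 arrays had r of 0.519 and rho of 0.324, and 59.6% had the same sign. These values are across features, which are not independent replicates.

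**Figure D1:**
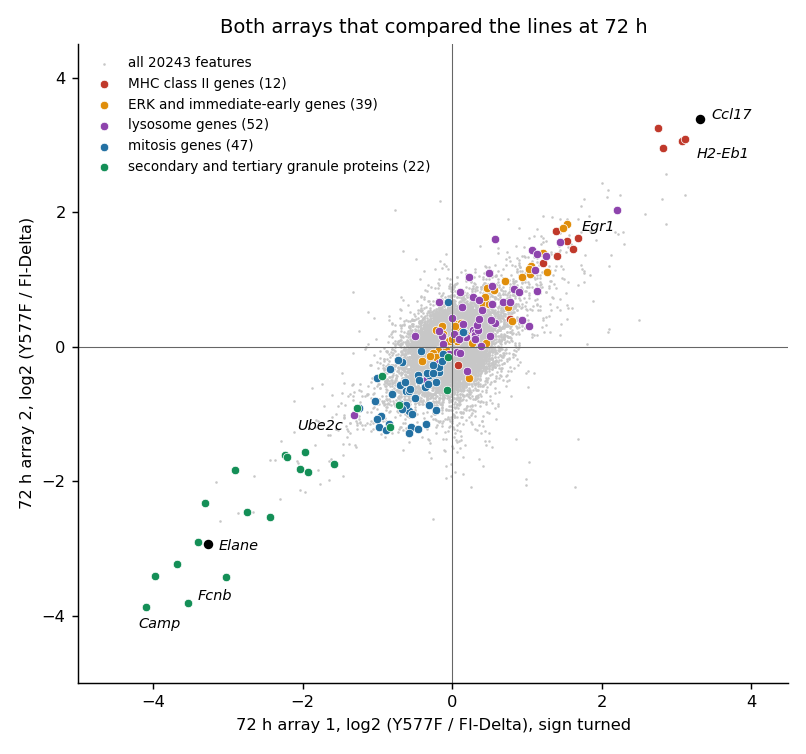
Each point is one of 20243 features, with the log2 ratio of Y577F over FI-Delta on 72 h array 1 (x axis, sign turned) and 72 h array 2 (y axis), coloured points are members of 5 gene lists, and black points are Ccl17 and Elane. Of the MHC class II genes, 11 of 12 are positive on both arrays, as is Ccl17 at 3.32 and 3.39. All 22 members of the secondary and tertiary granule list are negative on both, such as Camp at -4.10 and -3.87.

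Of the 5 genes with the largest higher values in Y577F, 4 encode classical MHC class II chains, and the other is the chemokine gene Ccl17. MHC class II molecules are pairs of alpha and beta chains that show peptides to T helper cells, and dendritic cells, B cells and activated macrophages carry them. Of 12 measured class II genes, 11 were called higher and none lower, with a median of 1.54 beside 0.007 over all features. Both classical pairs were among them. H2-Eb1, the beta chain of I-E, had 3.12 and 3.08 on the 2 arrays. Both values lie above those on the 0 h arrays, which had 1.34, 1.38 and 1.36. The fitted difference was 3.29 ± 0.13 (SE), 9.77-fold, with a limma adjusted p of 4.7e-08. H2-Aa, the alpha chain of I-A, had 2.75 and 3.25 (3.03 ± 0.10), H2-Ab1, its beta chain, 3.08 and 3.06 (2.98 ± 0.09), and H2-Ea, the alpha chain of I-E, 2.82 and 2.96 (2.92 ± 0.14). For these chains the 2 arrays differed by 0.50 or less.

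The promoters of H2-Aa, H2-Eb1 and H2-Oa are shown because these genes moved together and hold the same short element, the Y box CTGATTGG, printed in capitals. It was searched on both strands, and its ATTGG end is the reverse complement of CCAAT. The Y box is the binding site of NF-Y in class II promoters, where NF-Y acts beside RFX and the coactivator CIITA. Sequences are from RefSeq on GRCm38.p6, from 250 bases before to 50 bases after the start site, in the direction of the gene. They lie at chr17:34287774-34288073 (minus strand, H2-Aa), chr17:34305617-34305916 (plus strand, H2-Eb1) and chr17:34092129-34092428 (plus strand, H2-Oa). The element starts 51, 62 and 46 bases before the start site in that order.
H2-Aa: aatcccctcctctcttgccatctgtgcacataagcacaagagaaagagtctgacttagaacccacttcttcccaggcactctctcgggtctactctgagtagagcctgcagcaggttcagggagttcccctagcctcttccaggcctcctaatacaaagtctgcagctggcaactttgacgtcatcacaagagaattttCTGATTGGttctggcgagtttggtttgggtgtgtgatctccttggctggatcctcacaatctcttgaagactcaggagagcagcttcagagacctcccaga
H2-Eb1: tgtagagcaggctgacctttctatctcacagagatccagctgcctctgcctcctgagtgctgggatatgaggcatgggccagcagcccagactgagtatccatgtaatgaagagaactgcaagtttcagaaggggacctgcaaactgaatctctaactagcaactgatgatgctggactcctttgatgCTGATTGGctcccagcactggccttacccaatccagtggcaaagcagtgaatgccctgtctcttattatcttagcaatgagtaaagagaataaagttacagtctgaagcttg
H2-Oa: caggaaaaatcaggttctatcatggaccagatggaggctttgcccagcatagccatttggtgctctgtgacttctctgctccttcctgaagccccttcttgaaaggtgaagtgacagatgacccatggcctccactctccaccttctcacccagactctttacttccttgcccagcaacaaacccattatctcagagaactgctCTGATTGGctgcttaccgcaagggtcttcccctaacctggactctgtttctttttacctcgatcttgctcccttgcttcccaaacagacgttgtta
Of the 12 class II genes, 8 had a promoter in the table, and 4 of them (50%) held CTGATTGG, against 4.7% of 27025 genes. H2-Eb2, the fourth, differed by -0.06 and was the 1 class II gene not called. A match of letters is a description and not a binding site.

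The genes that load peptide were higher by smaller amounts. H2-DMa and H2-DMb1, which encode the chaperone that exchanges peptides in class II, differed by 1.50 ± 0.11 and 1.65 ± 0.09, and H2-DMb2 by 1.21 ± 0.10. H2-Oa and H2-Ob, which encode the chaperone's modulator, differed by 1.57 ± 0.08 and 1.46 ± 0.11. Cd74, the invariant chain that guides class II to endosomes, differed by 1.46 ± 0.11, and Ciita, the coactivator, by 0.70 ± 0.16 (adjusted p = 0.015). At 0 h, 8 of the 12 were already called higher, with a median of 0.60, and the 72 h difference was called larger than the 0 h difference in 9. Without 0 h array 1 the 0 h count was 5, and with the culture numbers in title order as a replicate block it was 3, or 1 without the dye term. The classical chains took different courses in the lines. H2-Aa changed by -1.78 between 0 h and 72 h in FI-Delta (adjusted p = 4.1e-06) and by 0.58 in Y577F (adjusted p = 0.0019), and H2-Eb1 by -1.57 and 0.48. These time contrasts come from the same fit and share samples with the 72 h comparison.

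Other dendritic cell genes were mixed. Of 18, 7 were called higher and none lower, with a median of 0.21, and 4 were called without 72 h array 1. Ctss encodes cathepsin S, which trims the invariant chain, and it had 2.20 and 2.03 on the 2 arrays (2.22 ± 0.09, adjusted p = 7.2e-08). Itgax, the CD11c chain used to mark dendritic cells, had 2.58 and 1.97 (2.13 ± 0.14), and Irf8, a factor of monocyte and dendritic cell development, 0.91 and 0.78 (0.87 ± 0.08). Lgmn, a lysosomal protease of antigen processing, differed by 0.65 ± 0.09. The maturation genes Cd83 (0.27), Cd80 (-0.12), Cd86 (0.02), Cd40 (0.06) and Ccr7 (-0.26) were not called, nor were Flt3 (-0.04) and Zbtb46 (0.06), which mark the conventional dendritic lineage.

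Chemokine genes followed with 9 of 19 called higher and none lower, and a median of 0.23. Ccl17, a ligand of CCR4 made by dendritic cells and alternatively activated macrophages, had 3.32 and 3.39 on the 72 h arrays and 1.42, 0.79 and 1.32 on the 0 h arrays. The 72 h values lie above all 0 h values. Its fitted difference of 3.35 ± 0.15 (10.2-fold, adjusted p = 8.4e-08) was the largest among named genes called higher. It changed by 2.22 over time in Y577F (adjusted p = 1.6e-06) and by 0.04 in FI-Delta (adjusted p = 0.93). Ccl22, the other CCR4 ligand, had 1.18 and 1.06 (1.00 ± 0.11). Cxcl2 (1.37 ± 0.20), Ccl4 (1.36 ± 0.18) and Ccl3 (1.22 ± 0.22), inflammatory chemokines for neutrophils and monocytes, were also called. For Cxcl2 the 0 h difference of 1.72 was as large, and for Ccl4 and Ccl3 it was 0.94 and 0.78. The change in difference was not called for Cxcl2, Ccl4 or Ccl3 (adjusted p = 0.4, 0.24 and 0.32). Among the 19 chemokine genes it was called higher at 72 h in 3 and lower in none. Without the 2 direct arrays, 1 of the 9 chemokine genes was still called.

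**Figure D2:**
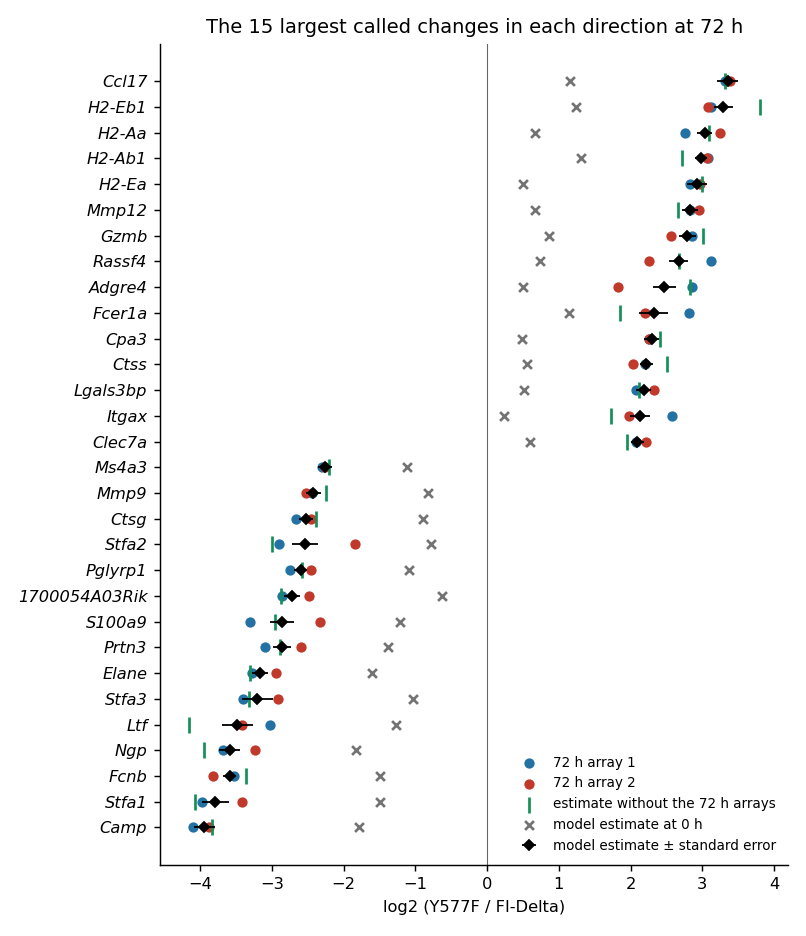
The 15 largest called changes in each direction with the same sign on both 72 h arrays, as log2 of Y577F over FI-Delta (x axis), with the value on each 72 h array, the model estimate with its SE, the estimate without the 72 h arrays and the estimate at 0 h. For all 30 genes the 72 h estimate lies farther from 0 than the 0 h estimate, for example H2-Eb1 at 3.29 and 1.24 and Elane at -3.16 and -1.60. The genes were chosen for their size at 72 h, which favours this order, so it is a description.

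Markers of monocytes and macrophages were higher in Y577F in 20 of 35 and lower in 2, with a median of 0.51. Mmp12, the macrophage elastase, had 2.83 and 2.95 (2.83 ± 0.11, 7.11-fold). Clec7a, the beta-glucan receptor dectin-1, had 2.07 and 2.22 (2.09 ± 0.09), and Clec4n, the receptor dectin-2, 1.72 and 2.09 (1.85 ± 0.11). Cx3cr1, the fractalkine receptor, had 1.77 and 2.19 (1.93 ± 0.10), while its 0 h difference was 0.06. Ccr2, the receptor that draws monocytes from the marrow, had 1.21 and 1.94 (1.71 ± 0.15). Cd68, a glycoprotein of macrophage endosomes, had 1.25 and 1.34 (1.33 ± 0.09). Gpnmb, a glycoprotein of phagocytes, had 1.35 and 1.71 (1.57 ± 0.14), and Ms4a6c 1.45 and 1.90 (1.74 ± 0.10). Cd14, the coreceptor for endotoxin, had 1.13 and 0.63 (1.03 ± 0.13) and Adgre1, an adhesion receptor that marks macrophages, 0.93 and 0.30 (0.61 ± 0.08). In 18 of the 35 the difference was called higher at 72 h than at 0 h.

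Not all members of the macrophage list moved. Itgam, the CD11b chain that neutrophils share, had -1.44 and -1.02 (-1.15 ± 0.10) and was lower, and so was Clec4a2 at -0.82. Itgam and Itgax encode alpha chains that pair with the same beta chain, so these integrin genes went opposite ways. The complement genes C1qa (-0.14), C1qb (0.07) and C1qc (0.08), as well as Lgals3 (0.05), Apoe (0.17) and Spi1 (0.10), which encodes PU.1, were not called. Lyz2, lysozyme, was at 0.01, but its probes read -0.44 and 0.46. Outside the lists, Rassf4, a Ras association domain gene, had 3.12 and 2.25 (2.67 ± 0.13), Adgre4, an adhesion receptor of macrophages, 2.86 and 1.83 (2.47 ± 0.16), and Lgals3bp, a galectin-binding glycoprotein, 2.08 and 2.33 (2.18 ± 0.10).

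Of 12 alternative activation genes, 3 were called higher, with a median of 0.10. Mrc1, the mannose receptor, had 0.81 on both arrays, with a fitted 1.13 ± 0.21 (adjusted p = 0.0035) and 2.02 without the direct arrays. Socs1, a feedback inhibitor of cytokine signalling, differed by 0.71 ± 0.15 and Pdcd1lg2, a ligand of PD-1, by 0.34 ± 0.08. Arg1 (0.07), Retnla (-0.09) and Chil3 (-0.36), textbook products of this state, were not called. Pdcd1lg2 lost its call without either 72 h array, and Socs1 without 72 h array 2 (adjusted p = 0.11). Pdcd1lg2 also lost it without FI-Delta time array 3. The list held 1 lower call without 0 h array 3, Y577F time array 1 or FI-Delta time array 3.

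Lysosomes hold the hydrolases that digest material taken up by phagocytosis, and 29 of 52 lysosome genes were called higher and 2 lower, with a median of 0.36. Naaa, an acid amidase, had 1.45 and 1.56 (1.52 ± 0.10). Lipa, the acid lipase, had 1.07 and 1.43 (1.30 ± 0.09). Cathepsins behaved unevenly: Ctss, Ctsl (1.08 ± 0.12) and Ctsb (0.96 ± 0.14) were higher, whereas Ctsd (-0.11), Ctsh (0.12) and Ctsz (-0.01) were not called. Gm2a and Psap, which encode activators of sphingolipid breakdown, differed by 1.27 ± 0.12 and 1.16 ± 0.13. Tfeb, a transcription factor of the lysosomal program, differed by 0.46. Arsb, arylsulfatase B, was lower at -1.08 ± 0.09, and its probes read -1.27, -0.44 and -1.54. Without either 72 h array the count of lower members was 1. At 0 h 1 of the 52 was called higher, and the difference was called larger at 72 h in 26. With the 2 direct arrays alone 17 were called higher, and without them 12.

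The promoter of Ctsa, the protective protein cathepsin A, is shown because TFEB and its relatives bind the palindrome TCACGTGA, printed in capitals, and this gene differed by 1.16 ± 0.11 (1.11 and 1.14 on the arrays). It is from RefSeq on GRCm38.p6 at chr2:164833523-164833822 (plus strand), 1 of 2 start sites in the table. The palindrome starts 13 bases before and 4 bases after the start site.
Ctsa: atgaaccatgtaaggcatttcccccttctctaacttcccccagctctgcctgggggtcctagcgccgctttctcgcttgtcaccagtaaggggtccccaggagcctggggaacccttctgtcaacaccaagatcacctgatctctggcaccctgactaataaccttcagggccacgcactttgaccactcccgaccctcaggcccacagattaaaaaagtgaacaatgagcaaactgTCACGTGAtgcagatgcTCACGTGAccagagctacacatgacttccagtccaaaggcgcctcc
Of 46 lysosome genes with a promoter, 7 (15.2%) held TCACGTGA, against 1.12% of 27025 genes. Of those 7, Ctsa and Dpp7 (0.53) were called higher. Ctsd (-0.11), Gla (0.18), Atp6v1a (-0.08), Mcoln1 (0.35) and Cln3 (0.07) held it and were not called.

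Granule protein genes were the largest lower group in Y577F. Neutrophils fill primary granules with serine proteases and myeloperoxidase at the promyelocyte stage, and secondary and tertiary granules with lactoferrin, cathelicidin and gelatinase later. Of 12 primary granule genes, 8 were called lower and 1 higher, with a median of -1.55. Elane, neutrophil elastase, had -3.27 and -2.94 on the 72 h arrays and -1.73, -1.70 and -1.43 at 0 h. Both 72 h values lie below all 0 h values. The fitted 72 h difference was -3.16 ± 0.11, 8.93-fold, with a limma adjusted p of 2.2e-08. Prtn3, proteinase 3, had -3.10 and -2.59 (-2.86 ± 0.13), Ctsg, cathepsin G, -2.67 and -2.46 (-2.52 ± 0.10), and Ms4a3, a membrane protein of granulocyte progenitors, -2.30 and -2.26 (-2.26 ± 0.10). Mpo, myeloperoxidase, had -1.44 and -1.04 (-1.22 ± 0.09). Ctsc, the peptidase that activates these proteases, was the member that was higher, with 0.84 and 0.75 (0.89 ± 0.09). Serpinb1a, an inhibitor of elastase, differed by 0.26 at 0 h and by -1.74 ± 0.09 at 72 h.

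Of 22 genes on the secondary and tertiary granule list, 20 were called lower and none higher, with a median of -1.89. All 22 were negative on both 72 h arrays. The list also holds neutrophil genes such as Stfa1 and the receptor gene Ltb4r1, so not every member encodes a granule content. Camp, cathelicidin, had -4.10 and -3.87 and, at 0 h, -1.52, -2.31 and -1.45. Its fitted difference of -3.94 ± 0.15 (15.3-fold, adjusted p = 3.9e-08) was the largest of all named genes in either direction. Fcnb, a ficolin of the lectin complement pathway, had -3.53 and -3.82 (-3.59 ± 0.09), and Ngp, neutrophilic granule protein, -3.68 and -3.23 (-3.59 ± 0.14). Ltf, lactoferrin, had -3.03 and -3.42 (-3.48 ± 0.22). Mmp9, gelatinase B, had -2.44 and -2.53 (-2.42 ± 0.10). S100a9 and S100a8, the calprotectin chains, differed by -2.86 ± 0.17 and -1.87 ± 0.16. The stefin genes Stfa1 (-3.79 ± 0.19), Stfa3 (-3.20 ± 0.22) and Stfa2 (-2.54 ± 0.18) are near-identical copies, so their probes may detect each other. Hp (-0.22) and Cd177 (-0.10) were not called, and Itgb2l was called at -1.78 with probes at -3.45 and -0.11.

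The lines moved differently over time at these genes. In FI-Delta, Camp changed by 1.75, Ltf by 2.45 and Fcnb by 1.66 between 0 h and 72 h. In Y577F, Camp changed by -0.41, Ltf by 0.24 and Fcnb by -0.44. Over the 22 genes the median change was 1.22 in FI-Delta and -0.03 in Y577F, beside primary granule medians of 0.28 and -0.76. At 0 h 16 of the 22 and 5 of the 12 primary granule genes were already called lower, with medians of -0.78 and -0.31. Without 72 h array 1 the 0 h count over the 22 was 10, and with a replicate block it was 5. The difference was called lower at 72 h than at 0 h in 19 of the 22 and in 8 of the 12. 1700054A03Rik, a gene of no assigned role here, had -2.86 and -2.48 (-2.72 ± 0.11) and changed by 1.89 in FI-Delta and -0.20 in Y577F.

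**Figure D3:**
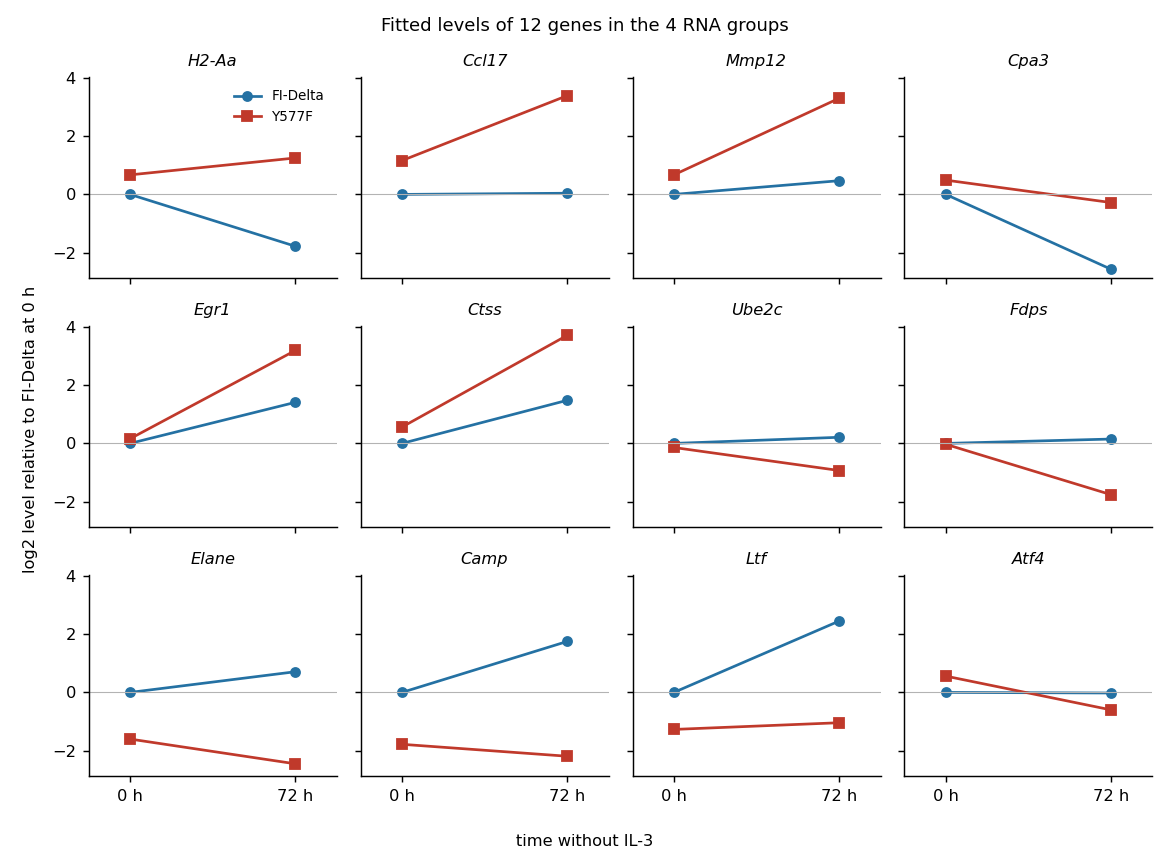
Fitted log2 levels of 12 genes at 0 h and 72 h (x axis), each relative to FI-Delta at 0 h (y axis), for FI-Delta (circles) and Y577F (squares). The gap at 72 h is the difference reported in the text, for example 3.03 for H2-Aa, 1.78 for Egr1, -1.92 for Fdps and -3.94 for Camp, and the lines of Atf4 cross.

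Neutrophil receptor genes went both ways, with 5 of 11 lower and 2 higher and a median of -0.15. Ceacam1, an adhesion receptor, had -2.03 and -2.14 (-2.18 ± 0.10), and Trem3 -1.36 and -1.28 (-1.35 ± 0.09). Cxcr2, the receptor for CXCL2, had -0.58 and -0.57 (-0.62 ± 0.08). Fpr2, a formyl peptide receptor that monocytes also carry, had 1.13 and 1.75 (1.46 ± 0.14) and was higher, as was Csf3r, the G-CSF receptor, at 0.36. C5ar1 (-0.15) and Trem1 (-0.03) were not called. Without 72 h array 1 the lower count was 3, and the higher count was 1 without either 72 h array, Y577F time array 2, or array 1 or 3 of the FI-Delta time course.

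Some markers of mast cells and basophils were higher as well, 7 of 18, with 1 lower and a median of 0.17. Gzmb, granzyme B, had 2.86 and 2.56 (2.79 ± 0.12, 6.91-fold), and Cpa3, mast cell carboxypeptidase, 2.25 and 2.26 (2.29 ± 0.10). Fcer1a, the chain of the IgE receptor that binds IgE, had 2.81 and 2.20 (2.32 ± 0.20). Cd200r3 differed by 1.52 ± 0.13. Between 0 h and 72 h Cpa3 changed by -2.57 in FI-Delta and -0.77 in Y577F, and Gzmb by -2.67 and -0.74. Both genes fell in both lines, and the difference between the lines was called higher at 72 h for both. Hdc, which makes histamine, was lower at -1.25 ± 0.08. The mast cell proteases Mcpt1 (-0.08), Mcpt2 (0.17), Mcpt4 (0.05), Mcpt8 (0.00), Cma1 (0.16), Tpsab1 (-0.12) and Tpsb2 (-0.21) and the receptor Kit (0.22) were not called.

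Among erythroid and megakaryocyte markers, 5 of 16 were higher and 3 lower (median 0.15). Itga2b, the CD41 chain, had 1.54 and 1.89 (1.75 ± 0.10), and Tal1, a factor of the erythroid and megakaryocytic lineages, 0.76 and 0.99 (0.86 ± 0.08). Tfrc, the transferrin receptor, had -1.23 and -1.12 (-1.17 ± 0.08), and Vwf differed by 0.69 ± 0.10. Gata1 (0.07), Klf1 (0.07) and Epor (0.27) were not called, and without either 72 h array the lower count was 1. Of 18 lymphoid markers, Cd3d was lower (-1.31 and -0.67 on the arrays, adjusted p = 0.0017) and Vpreb1 higher (0.64 ± 0.09), with a median of -0.03. Of 15 stromal and epithelial markers, Pdgfrb (0.88 ± 0.11) and Dcn (0.45 ± 0.11) were higher and Acta2 (-0.38 ± 0.08) lower, with a median of 0.01. The lymphoid counts and the lower stromal count are near the shares over all features, 6.44% higher and 6.45% lower. Dcn was not called without either 72 h array, and Acta2 not without 72 h array 1. The part of other cell types in the results above was not tested.

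Genes of mitosis were lower in Y577F. They act at the spindle and kinetochores or drive entry into and exit from mitosis, and their RNAs are most abundant in dividing cells. Of 47, 38 were called lower and none higher, with a median of -0.61, and 44 were negative on both arrays. Ube2c, the ubiquitin-conjugating enzyme of the anaphase-promoting complex, had -1.25 and -0.92 on the 72 h arrays and -0.18, -0.10 and -0.13 at 0 h. The 72 h values lie below all 0 h values. The difference was -1.14 ± 0.09, 2.2-fold (adjusted p = 7.1e-06). Tpx2, which activates Aurora A on the spindle, had -0.89 and -1.24 (-1.05 ± 0.10), Prc1, which bundles midzone microtubules, -0.95 and -1.03 (-1.03 ± 0.09), and Cks2, a partner of the cyclin-dependent kinases, a fitted -0.99 ± 0.09. Mki67, the antigen used to score dividing cells, differed by -0.80 and Top2a, the topoisomerase of chromosome segregation, by -0.85. Aurkb (0.23), Cdc20 (0.10) and Cdc25b (0.17) were not called, and Plk1 was called at -0.37 with probes at -0.81 and 0.06. At 0 h none of the 47 was called, with a median of -0.05, and the difference was called lower at 72 h in 32. With the 2 direct arrays alone 24 were called lower, and without them 8, with medians of -0.59 and -0.64.

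The promoters of Ube2c and Prc1 are shown with TTTGAA in capitals (TTCAAA on the other strand), the core of the CHR element through which many mitotic genes are repressed outside division. They are from RefSeq on GRCm38.p6, at chr2:164769679-164769978 (Ube2c) and chr7:80294201-80294500 (Prc1, 1 of 2 start sites), both on the plus strand. The element starts 29 and 5 bases before the start site.
Ube2c: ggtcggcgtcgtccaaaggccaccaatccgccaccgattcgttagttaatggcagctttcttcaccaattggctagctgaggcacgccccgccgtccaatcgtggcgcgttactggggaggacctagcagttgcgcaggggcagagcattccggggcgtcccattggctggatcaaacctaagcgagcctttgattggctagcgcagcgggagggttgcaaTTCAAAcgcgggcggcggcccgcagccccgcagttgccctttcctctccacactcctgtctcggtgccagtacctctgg
Prc1: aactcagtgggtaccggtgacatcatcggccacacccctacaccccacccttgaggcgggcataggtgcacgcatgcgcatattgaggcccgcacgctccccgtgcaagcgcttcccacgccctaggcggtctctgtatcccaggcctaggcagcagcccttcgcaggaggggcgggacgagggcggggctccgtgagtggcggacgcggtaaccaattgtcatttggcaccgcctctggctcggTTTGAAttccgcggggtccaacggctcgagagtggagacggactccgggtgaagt
Of 40 mitosis genes with a promoter, 30 (75%) held TTTGAA on either strand, against 20.2% of 27025 genes. Aurka (-0.32), Cdc20 and Ncapd2 (-0.25) held it as well and were not called at 72 h. Tpx2 and Cks2, named above as lower, were not among the 30 genes with a match.

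DNA replication genes were lower in 25 of 55 and higher in 1, with a median of -0.27. Rrm2, the subunit of ribonucleotide reductase that limits nucleotide supply, had -0.88 and -1.10 (-1.02 ± 0.16). Cdc45, part of the replicative helicase, had -1.14 and -0.97 (-0.91 ± 0.12), and Pole2, a polymerase epsilon subunit, -0.76 and -1.05 (-0.80 ± 0.11). Chaf1b, a histone chaperone, differed by -0.75 ± 0.09. Of the MCM helicase genes, Mcm4 (-0.75), Mcm5 (-0.53), Mcm3 (-0.49) and Mcm6 (-0.47) were lower, whereas Mcm2 (-0.17) and Mcm7 (0.01) were not called. Pcna was at 0.00. Ccnd2, cyclin D2, was the member called higher, at 0.41, though not without 72 h array 2. The count of lower members was 16 without 72 h array 1 and 9 without 72 h array 2, and 0 without both.

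Ribosome biogenesis genes and targets of Myc were lower in 13 of 48 and higher in 2, with a median of -0.13. Ran, the GTPase of nuclear transport, had -0.98 and -0.55 (-0.81 ± 0.10), Nop56, a box C/D protein, -0.32 and -1.38 (-0.77 ± 0.14), and Nolc1 -0.69 and -0.70 (-0.58 ± 0.10). Prmt1, an arginine methyltransferase, was higher at 1.06 ± 0.14 (1.45 and 0.54). Myc itself differed by -0.17 and was not called, and Ncl was at 0.05 with probes at -0.55 and 0.66. Without 72 h array 1 the lower count was 6 and without 72 h array 2 it was 3, and Nop56 and Nolc1 were not called without 72 h array 2. The higher count was 1 without any 0 h or 72 h array, either Y577F time array or FI-Delta time array 2. Ribosomal protein genes had a median of 0.00, and 1 of 48, Rps12 (-0.40 ± 0.12, adjusted p = 0.046), was called, a share below that over all features. That call was lost on leaving out 72 h array 2, any 0 h array, Y577F time array 1, or array 2 or 3 of the FI-Delta time course.

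Immediate-early genes are switched on within minutes by growth factor signals, many of them through ERK, the pathway reached from Shc. In Y577F, 16 of 39 were called higher at 72 h and none lower, with a median of 0.17. The part of the changed tyrosine in this was not tested. Egr1, a zinc finger factor and classical ERK target, had 1.54 and 1.82 on the 72 h arrays and 0.25, 0.09 and 0.35 at 0 h. The groups do not overlap. The difference was 1.78 ± 0.10, 3.43-fold (adjusted p = 6.8e-07), while the 0 h difference was 0.16. Egr3 had 1.48 and 1.77 (1.69 ± 0.10), Fos 1.22 and 1.39 (1.37 ± 0.12) and Junb 1.27 and 1.11 (1.11 ± 0.10). Egr1 changed by 3.03 between 0 h and 72 h in Y577F and by 1.41 in FI-Delta, and both changes were called (adjusted p = 2.3e-08 and 1.6e-05). The feedback inhibitors of ERK signalling were not called, with Spry1 at 0.08, Spry2 at 0.17, Spry4 at -0.20, Spred1 at 0.09, Dusp4 at -0.30 and Dusp6 at -0.09, nor were Etv4 (-0.29), Etv5 (0.11) and Fosl1 (0.06). At 0 h none of the 39 was called, and the difference was called larger at 72 h in 12. Without the direct arrays 6 were called higher, and without 0 h array 3 there was 1 lower call.

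Of 18 STAT5 and cytokine feedback targets, 7 were higher and 1 lower, with a median of 0.23. STAT5 is activated by JAK2 at the common beta chain. Socs3, a feedback inhibitor, had 0.79 and 1.06 (0.99 ± 0.09), and Lta, lymphotoxin alpha, 0.83 and 0.94 (0.86 ± 0.09). Pim1 (0.59), Bcl2l1 (0.59), Socs1 and Cish (0.47) were higher. Podxl had -0.91 and -0.39 (-0.63 ± 0.09). Pim2 (0.27), Socs2 (0.22) and Bcl6 (-0.07) were not called, and without 72 h array 2 the higher count was 4. With a replicate block it was 5, or 2 without the dye term. At 0 h 4 of the 18 were already called higher and none lower. The difference was called higher at 72 h than at 0 h in 2 and lower in 1. For Socs1 (0.82 at 0 h) and Lta (0.70 at 0 h) it was not called.

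Of 22 receptor and relay genes, 5 were higher and 2 lower, with a median of 0.13. Csf2rb2, which encodes the beta chain specific to mouse IL-3 receptors and is close in sequence to Csf2rb, had 1.24 and 1.35 (1.33 ± 0.09, adjusted p = 2.1e-06) and 0.48, 0.43 and 0.57 at 0 h. Whether this probe also detects the introduced receptor was not tested, and Csf2rb had no named feature. The alpha chains Il3ra (0.71 ± 0.09), Csf2ra (0.54 ± 0.10) and Il5ra (0.52 ± 0.09) and Stat5a (0.62 ± 0.09) were higher. Gab1, a docking protein, was called lower at -0.39, but the lower count was 0 without 72 h array 1 and 1 without 72 h array 2. Shc1 (0.11), Grb2 (0.17), Gab2 (0.27), Sos1 (0.01), Ptpn11 (-0.22) and Jak2 (0.07) were not called. Ywhaz was called at -0.45 although its arrays read -0.81 and 0.14.

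**Figure D4:**
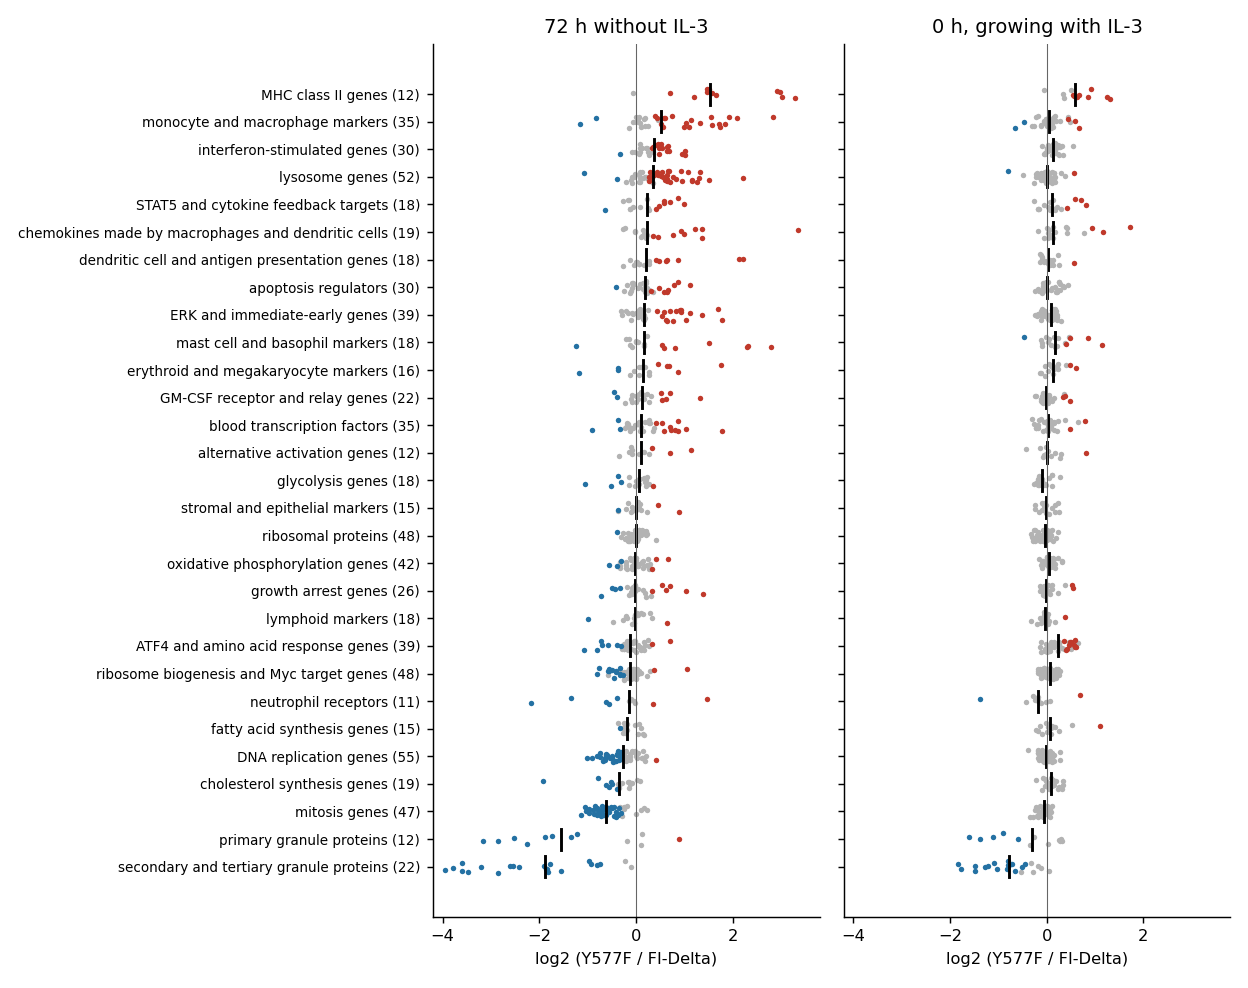
Log2 differences of Y577F over FI-Delta (x axes) for the measured members of 29 gene lists (rows, member counts in brackets) at 72 h and at 0 h. Points are genes, red called higher, blue called lower and grey not called, and black bars are medians, which run from 1.54 for MHC class II genes to -1.89 for secondary and tertiary granule proteins at 72 h.

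Genes of the ATF4 response, which supplies amino acids and serine when amino acids are short, were lower in part at 72 h and higher in part at 0 h. At 72 h 7 of 39 were lower and 2 higher, with a median of -0.13. The higher count is below the 6.44% of all features called higher at 72 h. At 0 h, in contrast, 10 were called higher and none lower, with a median of 0.23, beside 0.934% of all features called higher. The difference was called lower at 72 h in 18 and higher in 1. Atf4 itself had 0.50, 0.52 and 0.56 at 0 h and -0.58 and -0.55 at 72 h. It thus stood above FI-Delta on all 0 h arrays and below it on both 72 h arrays, with fitted values of 0.56 and -0.58 ± 0.09 (adjusted p = 0.004 and 0.0008). Psat1, an enzyme of serine synthesis, had -1.10 and -1.15 at 72 h (-1.07 ± 0.12) and a fitted 0.47 at 0 h (adjusted p = 0.066). Shmt2 (-0.80 ± 0.09), Psph (-0.73 ± 0.11) and Asns, asparagine synthetase (-0.70 ± 0.10), were lower at 72 h. Phgdh (0.18), Ddit3 (-0.03) and Trib3 (-0.19) were not called there. The 0 h count was 1 without 0 h array 1, 3 without 0 h array 3 and 6 without 72 h array 1. With a replicate block none of the 39 was called at 0 h, and 18 were still called lower for the difference between the times (15 without the dye term). The 72 h count of higher members was 1 without any 0 h or 72 h array, Y577F time array 1, or array 2 or 3 of the FI-Delta time course. The 72 h count of lower members was 0 without both direct arrays.

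**Figure D5:**
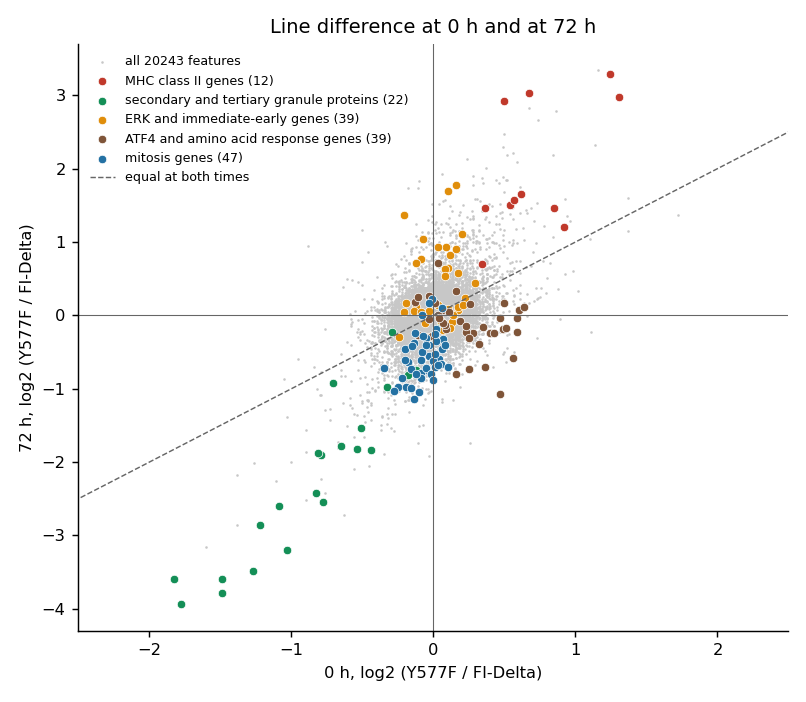
Fitted log2 difference of Y577F over FI-Delta at 0 h (x axis) and at 72 h (y axis) for 20243 features, with members of 5 lists coloured and a dashed line where both times would be equal. Class II and granule genes spread along both axes, none of the mitosis or immediate-early genes was called at 0 h, and Atf4 lies at 0.56 and -0.58.

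Cholesterol synthesis genes were lower in 7 of 19 and higher in none, with a median of -0.36. Fdps, farnesyl diphosphate synthase, had -1.77 and -2.04 (-1.92 ± 0.09, 3.77-fold, adjusted p = 1.8e-07) and -0.03 at 0 h. The next were smaller: Idi1 had -0.70 and -0.92 (-0.78 ± 0.12), Msmo1 -0.57 and -0.79 (-0.62 ± 0.10) and Fdft1, squalene synthase, -0.56 and -0.43 (-0.55 ± 0.09). Sqle (-0.28), Insig1 (-0.12), Srebf2 (-0.15) and Dhcr7 (-0.13) were not called. The difference was called lower at 72 h than at 0 h in 8. Of 15 fatty acid synthesis genes 1 was called lower, near the 6.45% of all features. It was Acaca at -0.33 ± 0.09, and its call was lost without either 72 h array, 0 h array 1 or 2, or either Y577F time array. Without FI-Delta time array 2 the count was 3. Fasn (-0.23) and Scd1 (-0.23) were not called.

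Interferon-stimulated genes were higher in 17 of 30 and lower in 1, with a median of 0.38, while none was called at 0 h. Trim30a had 1.11 and 1.00 (1.01 ± 0.09), Ifi203, a DNA sensor, 1.55 and 0.57 (1.01 ± 0.14), Irf7, which amplifies interferon genes, 1.54 and 0.41 (0.96 ± 0.16), and Irgm1, an interferon-inducible GTPase, 0.83 and 0.51 (0.69 ± 0.11). Array 1 read higher than array 2 for each of these. The strongly interferon-dependent Ifit1 (0.09), Ifit3 (-0.03), Mx1 (0.06), Rsad2 (0.23), Isg15 (0.36) and Usp18 (-0.08) were not called. The lower member, Isg20 (-0.33), lost its call on leaving out either 72 h array, Y577F time array 1, FI-Delta time array 3, or the second or the third 0 h array. Without 72 h array 1 the higher count was 9, and the difference from 0 h, called in 9, was called in 2 without 0 h array 1, in 3 without 72 h array 1 or Y577F time array 2, in 5 without 0 h array 2 and in 4 without FI-Delta time array 3.

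Of 30 apoptosis regulators, 8 were higher and 1 lower (median 0.19), and most of the larger ones protect cells. Bcl2a1d had 0.98 and 1.09 (1.11 ± 0.09), Bcl2a1a 0.54 and 1.04 (0.86 ± 0.09), Bcl2 0.68 and 1.02 (0.79 ± 0.12) and Mcl1 differed by 0.65. The Bcl2a1 copies are near identical, so their probes may detect each other. Bcl2l11, which encodes the killer protein Bim, was also higher, with 0.53 and 0.62 (0.66 ± 0.09), and Bid was lower at -0.42, though not without either 72 h array. Bbc3 (0.22), Pmaip1 (-0.09) and Fas (0.15) were not called.

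Of 26 growth arrest genes, 6 were higher and 4 lower (median -0.02). Btg1, an antiproliferative gene, had 1.19 and 1.53 (1.38 ± 0.09), Txnip 0.62 and 1.47 (1.04 ± 0.14) and Btg2 0.44 and 0.74 (0.71 ± 0.10). The inhibitor genes of the cyclin-dependent kinases split, with Cdkn1b (0.62 ± 0.15) and Cdkn1a (0.54 ± 0.15) higher and Cdkn2d (-0.73 ± 0.10) and Cdkn2c (-0.32 ± 0.08) lower. Gadd45a had a fitted 0.52 at 0 h and -0.44 at 72 h, both called (adjusted p = 0.04 and 0.035). Without 72 h array 2 the counts were 3 higher and 1 lower, without 72 h array 1 the lower count was 2, and without FI-Delta time array 3 it was 2.

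Of 35 blood transcription factors, 10 were higher and 3 lower (median 0.11). Besides Egr1 and Egr2 (1.04 ± 0.11), which count in the immediate-early list too, they were Irf8, Tal1, Mitf (0.80 ± 0.09), Runx1 (0.73 ± 0.11, with probes at 0.23 and 1.23), Cebpb (0.71 ± 0.09), Gata2 (0.57 ± 0.11), Bhlhe40 (0.53) and Batf3 (0.42). Myb, which keeps progenitors immature, had -1.14 and -0.72 (-0.90 ± 0.09). Lmo2 (-0.37) and Ets1 (-0.33) were the other lower ones, and without 72 h array 2 the lower count was 1. Cebpa (0.35), Gfi1 (-0.19), Cebpd (0.15) and Klf4 (-0.11), factors of the granulocyte and monocyte lineages, were not called. The count of larger differences at 72 h than at 0 h was 10, and it was 6 without 0 h array 1 and 6 without either 72 h array.

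Genes of energy metabolism held calls in both directions. Of 42 oxidative phosphorylation genes 3 were higher and 3 lower, with a median of -0.01. These counts are near the shares over all features, 6.44% higher and 6.45% lower. The largest were Sdhb (0.93 and 0.33, 0.66 ± 0.10) and Cox7a2 (-0.50 and -0.66, -0.56 ± 0.08). Ndufs3 differed by 0.42 ± 0.08 and Cycs, cytochrome c, by -0.39 ± 0.10. The counts were 1 and 1 without 72 h array 1, and the lower count was also 1 on leaving out array 2 of either time, or the FI-Delta time array 3, or Y577F time array 1. Of 18 glycolysis genes 4 were lower and 1 higher, with a median of 0.06. The higher count is below the share over all features. Slc2a3, a glucose transporter, had -1.39 and -0.74 (-1.06 ± 0.12), Tpi1 differed by -0.52 ± 0.09, Slc16a3, a lactate exporter, by -0.37 ± 0.09 and Aldoa by 0.36 ± 0.08. Hk2 (0.16), Gapdh (-0.15), Pkm (0.01) and Slc2a1 (-0.03) were not called. The count of lower glycolysis genes was 2 without either 72 h array. Cycs, Slc16a3 and Aldoa were not called without either 72 h array, nor Ndufs3 without 72 h array 1, nor Cycs and Slc16a3 without FI-Delta time array 3, nor Cycs without 0 h array 2 or Y577F time array 1.

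Of the features called at 72 h, 1291 of the 1304 higher and 1295 of the 1305 lower had the same sign on both direct arrays. Another 23 had opposite signs. Over all features 59.6% had the same sign on both. The direct arrays entered the fit that made the calls, so the counts among called features are a description. The estimate without these arrays comes only from the arrays at 0 h and over time. It had the same sign for 1302 of the higher and 1302 of the lower. Those other arrays also entered the calls, so this count too is a description. The estimate shares no array with the direct mean, but the RNA came from the same cultures. Across all features the 2 had r of 0.711, rho of 0.476 and the same sign in 64.4%. At both times 123 features were called higher and 83 lower, and 9 were called in opposite directions. The difference was called higher at 72 h than at 0 h in 716 of the features higher at 72 h and lower in 771 of the lower ones. The direct arrays alone called 1018 features and the other arrays alone 402.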

How the data were processed

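RNA of 2 FDB1 lines at 0 h and 72 h was compared on 10 two-colour spotted oligonucleotide arrays. The authors deposited 1 normalised log2 ratio per spot, and the submitters' processing notes name limma. Base 2 and the direction Cy5 over Cy3 are assumed, and no settings are recorded there. Of 23040 spots, 1243 controls were left out, and the 21797 probes gave 20243 features after probes of one gene were averaged. Of the probes, 16651 had 1 symbol, 137 had several and 5009 none, and no filter on signal was possible. One limma 3.58.1 model (R 4.3.3) held the 3 group differences from FI-Delta at 0 h and a dye term, with the dye swap of the same RNA averaged, leaving 9 hybridisations and 5 residual degrees of freedom. P-values were two-sided and adjusted by Benjamini-Hochberg over 20243 features. The fit was also run on simulated data with known changes. Those data had independent errors, so they could not test the effect of shared cultures and RNA extracts on the p-values. The number of arrays limits the precision. Named genes were the 15 largest calls in each direction with the same sign on both 72 h arrays, up to 4 of the largest calls of each list, the markers and Csf2rb2. Other list members were named after their values were seen. The lists, motifs and markers were chosen with earlier results of these data known. Motifs were searched on both strands of RefSeq promoters (GRCm38.p6, 27025 genes). Alternatives were the dye term, array weights, scaling, centring, probe handling, robust moderation, the arrays used, a replicate block and each array left out.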

Additional observations from a re-analysis of the deposited data

Results flagged for a closer look

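For 94 of the 112 named genes the difference between the lines at 72 h differed from that at 0 h by the interaction contrast of the same limma model, at an adjusted p under 0.05. It was higher at 72 h in 50 and lower in 44. The value in brackets after each gene is the 72 h difference minus the 0 h difference, in log2. Some of these genes were chosen for their size at 72 h, so their values are a description. Groups of 2 or 3 arrays are too small for a test of single outlying arrays.

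Among genes of antigen presentation and chemokines these were H2-Ea (2.41), H2-Aa (2.36), Ccl17 (2.18), H2-Eb1 (2.05), H2-Ab1 (1.67), Ctss (1.66), Itgax (1.88), Irf8 (0.84) and Lgmn (0.57). Among macrophage genes they were Mmp12 (2.16), Cx3cr1 (1.87), Clec7a (1.50), Clec4n (1.41), Cd68 (1.23) and Mrc1 (1.21), outside the lists Adgre4 (1.97), Rassf4 (1.93) and Lgals3bp (1.66), and among lysosome genes Naaa (1.53) and Lipa (1.35). Genes of mast cells, megakaryocytes and other lineages were Gzmb (1.93), Cpa3 (1.80), Fcer1a (1.18), Cd200r3 (1.05), Itga2b (1.14), Tal1 (0.38), Vwf (0.66), Pdgfrb (0.77) and Dcn (0.70) above 0 and Tfrc (-1.05) and Cd3d (-0.89) below 0.

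Among later granule genes and the neutrophil genes named with them the values were Stfa1 (-2.30), Ltf (-2.21), Stfa3 (-2.17), Camp (-2.16), Fcnb (-2.10), Ngp (-1.76), Stfa2 (-1.76), S100a9 (-1.63), Mmp9 (-1.59) and Pglyrp1 (-1.51). On the primary granule list they were Ctsg (-1.62), Elane (-1.56), Prtn3 (-1.48) and Ms4a3 (-1.15), beside 1700054A03Rik (-2.10). Neutrophil receptors split, with Trem3 (-1.05), Ceacam1 (-0.80) and Cxcr2 (-0.37) below and Fpr2 (0.77) above 0.

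Genes of division were all below 0, namely Ube2c (-1.0), Tpx2 (-0.95), Cks2 (-0.83) and Prc1 (-0.75) in mitosis and Rrm2 (-0.92), Pole2 (-0.75), Chaf1b (-0.75) and Cdc45 (-0.52) in DNA replication. Ribosome biogenesis genes were Nop56 (-1.03), Ran (-0.79) and Nolc1 (-0.74) below and Prmt1 (0.78) above 0. Serine synthesis genes were Psat1 (-1.54), Psph (-0.98) and Shmt2 (-0.95), and cholesterol synthesis genes Fdps (-1.89), Msmo1 (-0.93), Idi1 (-0.87) and Fdft1 (-0.75). Metabolic genes were Slc2a3 (-0.80), Tpi1 (-0.56) and Cox7a2 (-0.41) below and Aldoa (0.37) above 0.

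Immediate-early genes were all above 0, at Egr1 (1.62), Egr3 (1.59), Fos (1.58), Egr2 (1.11), Junb (0.92) and Btg2 (0.84). Signalling genes were Csf2rb2 (0.85), Stat5a (0.71), Csf2ra (0.61) and Socs3 (0.40) above and Podxl (-0.37) below 0. Interferon genes were Trim30a (0.77) and Ifi203 (0.70), apoptosis and arrest genes Bcl2a1d (0.83), Btg1 (0.83), Bcl2l11 (0.72), Bcl2a1a (0.68) and Txnip (0.66) above and Cdkn2d (-0.65) below 0, and transcription factors Cebpb (0.68) and Myb (-0.97).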

How the results depend on the processing

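No estimate of the 112 named genes changed sign at 72 h under any of the 21 alternatives run. Of 2609 features called at 72 h (1304 higher, 1305 lower), the direct arrays alone called 1018 (521 and 497), all arrays but these 402 (242 and 160) and array weights 5537 (2720 and 2817). With each array left out the counts ran from 1403 to 2629 (734 to 1301 and 628 to 1328). For the 0 h comparison (287), array weights gave 445 and leaving out an array 57 to 299, and for the difference between the times (1871) leaving out an array gave 911 to 1861. The replicate block by title order gave 1525 at 72 h with the dye term (703 and 822) and 979 without it (480 and 499), 42 and 21 at 0 h, and 1434 and 961 for the difference. Under that block 10 and 21 named genes lost their call. Whether the numbers pair the samples could not be settled: the cultures' dyes were reversed between 72 h and 0 h, so a dye effect enters their differences with opposite signs, and on some arrays the labels give the numbers to the opposite lines. Named genes that lost their call numbered 12 with the direct arrays alone, 47 without them and 0 to 10 with an array left out. Other settings gave 2096 to 2752 calls at 72 h. Settings that leave arrays out also have fewer of them, and the cause of these changes was not tested.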

Other observations

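Other gene families also held called members at 72 h. They were chosen after their values were seen, so their counts are a description. Of 16 Ms4a genes, 5 were called higher and 1 lower, with a median of 0.10. Ms4a6c (1.74), Ms4a6b (1.73), Ms4a6d (1.56), Ms4a4c (1.14) and Ms4a7 (0.57) were higher in Y577F, and Ms4a3 (-2.26) was lower. Several Ms4a and Ceacam genes are close copies, so their probes may detect each other. Of 11 Ceacam genes, Ceacam1 (-2.18), Ceacam2 (-2.01) and Ceacam10 (-1.22) were lower, and none was higher. Integrin alpha chains were higher in 7 of 15, led by Itgax (2.13), Itga2b (1.75), Itga1 (0.81), Itgae (0.76) and Itga4 (0.70), while Itgam (-1.15) was lower. Of 9 Toll-like receptor genes, Tlr2 (0.93), Tlr9 (0.90), Tlr1 (0.66) and Tlr8 (0.55) were higher and none was lower.

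Among 19 matrix metalloproteinase genes, Mmp12 (2.83), Mmp14 (0.67) and Mmp19 (0.38) were higher, and the granule enzymes Mmp9 (-2.42) and Mmp8 (-1.82) lower. Of 12 S100 genes, 4 were lower, S100a9 (-2.86), S100a8 (-1.87), S100a6 (-0.64) and S100a11 (-0.56), and none was higher. Of 10 IL-1 family genes 5 were higher and 2 lower. Il1rn (1.08), the receptor antagonist, Il1a (0.99), Il18rap (0.40), Il18r1 (0.36) and Il18 (0.32) were higher, and Il1b (-1.28 ± 0.30) and Il18bp (-0.31) lower. Il18r1 and Il18rap were also higher at 0 h, by 0.88 and 0.50 (limma adjusted p = 0.00068 and 0.008), more than at 72 h. On the 72 h arrays Il18r1 read 0.14 and 0.76. Il1b read -0.88 and -0.68 on the 72 h arrays, both smaller in size than its fitted value. Of 12 iron genes 5 were higher and 2 lower. Trf (1.48), Cp (1.40 ± 0.30), Fth1 (0.68), Hmox1 (0.53) and Slc11a1 (0.42) were higher. The exporter Slc40a1 (-1.73) and the uptake receptor Tfrc (-1.17) were lower. The 72 h arrays differed widely for Cp, which read above its fitted value on array 1 and only 0.39 on array 2. Among 18 genes of leukotrienes and prostaglandins, 6 were lower, including Lta4h (-2.00), Alox12 (-1.48) and Ptges (-0.76), and 2 were higher, the receptor genes Ptger4 (1.68) and Cysltr1 (0.32). Of 14 tubulin genes, 7 were lower and none was higher, with a median of -0.27.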
